A study of Homo sapiens with 4 samples.

Results

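A set of 10 snoRNA host gene noncoding RNAs, taken by name, was followed in 2 established human melanoma lines, SK-MEL-28 and A375. They were GAS5, ZFAS1, SNHG1, SNHG5, SNHG6, SNHG7, SNHG8, SNHG12, SNHG15 and SNHG16. Of these 10, 9 are listed among the 17755 genes of the deposited table, and SNHG5 was not analysed here. Each line was transfected with a control siRNA (siNC) or with siRNA against the long noncoding RNA LINC00622 (siLINC00622), kept for 6 h in medium without serum and then for 24 h in medium with serum. The 4 poly(A) libraries are 1 for each line and treatment, so a difference within a line has no replicate check.

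A small nucleolar RNA (snoRNA) is a short RNA of the nucleolus that guides ribose methylation (C/D type) or pseudouridylation (H/ACA type) of ribosomal RNA. Most human snoRNAs are cut out of the introns of longer host transcripts, and some hosts, such as the ones described here, have exons without a conserved protein. Many of these transcripts start with a run of pyrimidines, the 5′ terminal oligopyrimidine (TOP) sequence that they share with ribosomal protein mRNAs and that ties translation of such RNAs to mTOR activity. After splicing, ribosomes can engage short reading frames in them, and nonsense-mediated decay (NMD) then removes the RNA. The level of a spliced host RNA therefore reads both its synthesis and its decay.

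The first bases of the host transcripts are shown because the TOP sequence lies there. Each line below gives 30 bases on the transcribed strand from RefSeq (GRCh38.p14), with 10 bases before and 20 bases after the annotated start, and capitals mark the longest run of at least 5 C or T that touches the 5 bases on either side of the start.
SNHG1: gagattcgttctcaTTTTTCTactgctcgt
SNHG12: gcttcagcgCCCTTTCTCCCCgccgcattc
SNHG16: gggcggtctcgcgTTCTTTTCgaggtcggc
SNHG8: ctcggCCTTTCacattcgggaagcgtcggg
ZFAS1: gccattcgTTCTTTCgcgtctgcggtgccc
SNHG7: CCTTCTCgtcctctgcgtgcgccggaggct
The windows lie at chr11:62855866-62855895 on the minus strand (SNHG1), chr1:28581854-28581883 on the minus strand (SNHG12) and chr17:76557754-76557783 on the plus strand (SNHG16). Those of SNHG8, ZFAS1 and SNHG7 lie at chr4:118278752-118278781 on the plus strand, chr20:49278632-49278661 on the plus strand and chr9:136728165-136728194 on the minus strand. The run of SNHG12 is the longest shown, with 12 bases. The run of SNHG7 has 11 bases and begins before the window, so only its end is seen. It ends before the annotated start, and that of SNHG8 lies before the start but for its last base. The runs of SNHG1 and SNHG16 begin at base 5 and base 4 of the annotated transcript. In GAS5 the RefSeq start carries no such run, and the most common start of its GENCODE 29 transcripts (6 of 29, GRCh38 chr1:173867960-173867989, minus strand) lies downstream and is shown with its first 30 bases.
GAS5: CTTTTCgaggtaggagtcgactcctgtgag
Of the 8 host genes with a RefSeq window, SNHG5 included, 7 held a run, against 34.1% of 35116 windows of all genes. SNHG6 and SNHG15 have no window here. A run is a description of these letters on the transcribed strand only, and the starts used in these cells were not measured.

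The libraries held between 31269923 and 36384819 counts, of which between 99.7% and 99.8% fell on listed genes. LINC00622, the targeted RNA, had 309 counts in the siNC library of SK-MEL-28 and 135 in its siLINC00622 library, against 135 and 86 for A375. Its log2 ratio of siLINC00622 over siNC was -1.21 for SK-MEL-28 (95% counting interval -1.53 to -0.93) and -0.84 for A375 (-1.27 to -0.46). The labels give a melanoma tissue as the source beside the name of the cell line. All 10 of 10 melanocyte lineage markers are listed, and their summed FPKM was 2120 and 2297 in the SK-MEL-28 libraries and 134 and 167 in the A375 libraries, where PMEL, a melanosome protein, was at 2.24 and 2.35 and MLANA, TYR, DCT and GPR143 were each under 1. SOX10, a transcription factor among these markers, was at 153 and 118 in the siNC libraries of SK-MEL-28 and A375. MITF, another one, was at 80.1 and 5.29 in the same libraries. Of 10 markers of other cell types 3 are listed, with a summed FPKM of 1.18 and 1.16 in SK-MEL-28, against 14.1 and 13.2 in A375. Their part in the results below was not tested.

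Levels are given first as the deposited FPKM (fragments scaled to gene length and library size), in the order SK-MEL-28 siNC, SK-MEL-28 siLINC00622, A375 siNC and A375 siLINC00622. GAS5 (growth arrest-specific 5), the host of a set of C/D snoRNAs and an RNA known to build up when growth stops, was at 30.1, 29.5, 63.8 and 61.2. SNHG6 was at 36.7, 33.6, 59.8 and 53.1, and SNHG1, a host of C/D snoRNAs, at 19.2, 18.7, 41.6 and 29.1. These 3 RNAs had the highest mean FPKM, and in each of them both A375 libraries lay above both SK-MEL-28 libraries. SNHG16, another host of C/D snoRNAs, was at 22.5, 16.9, 14.0 and 11.7. SNHG15 was at 12.8, 12.5, 8.39 and 7.01, and with SNHG16 was one of the RNAs that stood higher in both SK-MEL-28 libraries. SNHG7, a host of H/ACA snoRNAs, was at 9.89, 9.76, 18.4 and 14.7. SNHG12, which hosts mostly H/ACA snoRNAs, was at 3.31, 4.44, 10.2 and 8.0. The lowest means were those of ZFAS1, which runs antisense to the start of ZNFX1 and hosts C/D snoRNAs, at 4.61, 4.84, 4.85 and 4.21, and of SNHG8, at 3.61, 3.21, 5.26 and 4.91. Only for ZFAS1 did the 2 lines overlap.

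**Figure D1:**
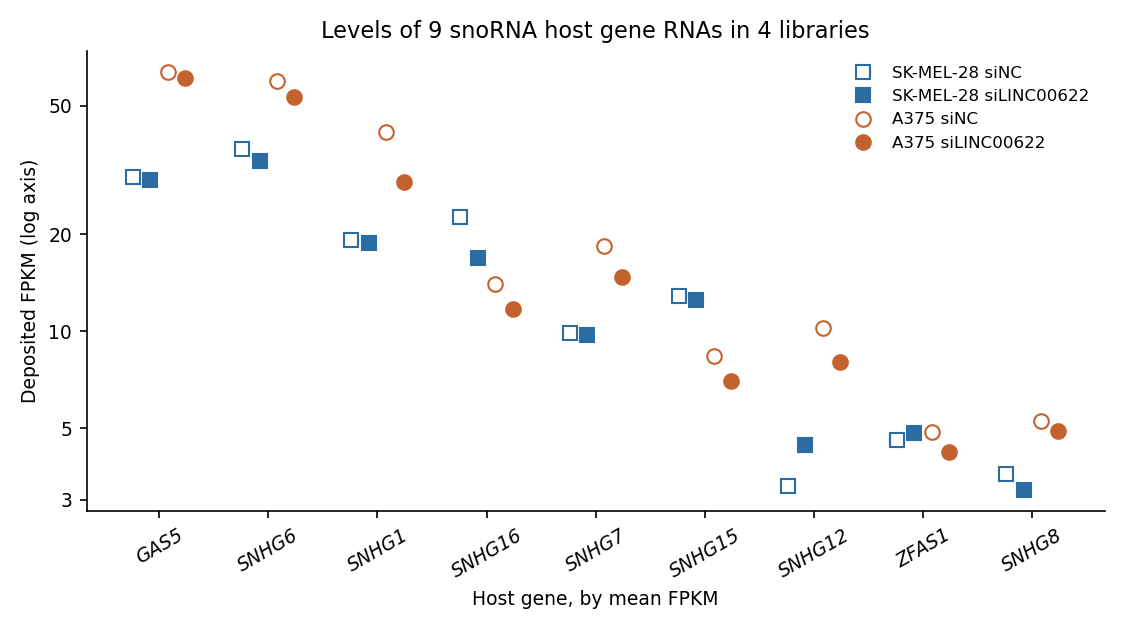
Deposited FPKM (log axis) of 9 snoRNA host gene RNAs, ordered by mean FPKM, in the 4 libraries, 1 point per library and without error bars because there is 1 library per condition. GAS5, SNHG6, SNHG1, SNHG7, SNHG12 and SNHG8 lie higher in both A375 libraries, SNHG16 and SNHG15 lie higher in both SK-MEL-28 libraries, and ZFAS1 lies between 4.21 and 4.85 in all 4.

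By mean FPKM over the 4 libraries the order was GAS5 (46.1), SNHG6 (45.8), SNHG1 (27.2), SNHG16 (16.3), SNHG7 (13.2), SNHG15 (10.2), SNHG12 (6.49), ZFAS1 (4.63) and SNHG8 (4.25). Every neighbouring pair in that order overlapped over the 4 libraries. GAS5 ranked below SNHG6 in both SK-MEL-28 libraries and above it in both A375 libraries. Among all listed genes in a library, GAS5 stood between the 91.6 and the 96.7 percentile of FPKM and SNHG8 between 53.1 and 60.6.

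The order depended on the length behind the FPKM. CPM (counts scaled to the library total) divided by FPKM gives 1 fixed length per gene, and that length was 14.1 times the median annotated transcript (GENCODE 29 basic set) for SNHG8, 11.4 times for ZFAS1 and 8.10 times for GAS5, but 1.95 times for SNHG6. For ZFAS1 the length is 8315 bases against a median transcript of 732 bases. CPM per kilobase of the median transcript, a measure chosen after the data were seen, put GAS5 at 373, SNHG1 at 141, SNHG6 at 89.5, SNHG8 at 59.7 and ZFAS1 at 52.6 on average. SNHG16 (44.9), SNHG15 (42.1), SNHG12 (36.7) and SNHG7 (29.9) followed on the same scale. SNHG8 thus moved from the ninth place to the fourth, SNHG7 from the fifth to the ninth, and GAS5 was first by each of the 3 measures. This place of SNHG8 is no level of its transcript, since the length behind its FPKM (6608 bases) exceeds the whole annotated gene (1115 bases) and its counts may come from outside it. That length also exceeds the annotated gene for SNHG1 (3970 against 3927 bases) and equals it for SNHG15 (3939 bases). It is close to the annotated gene for GAS5 (4842 against 4983 bases) and SNHG12 (4266 against 4595 bases). Lengths this near the whole gene would take in introns. Counts may then include reads from introns, and values per kilobase need not be levels of the spliced RNA, which was not tested. Comparisons of 1 gene between libraries do not rest on this length, but would include any such reads. Those of SNHG8 would also include any counts from outside the annotated gene.

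**Figure D2:**
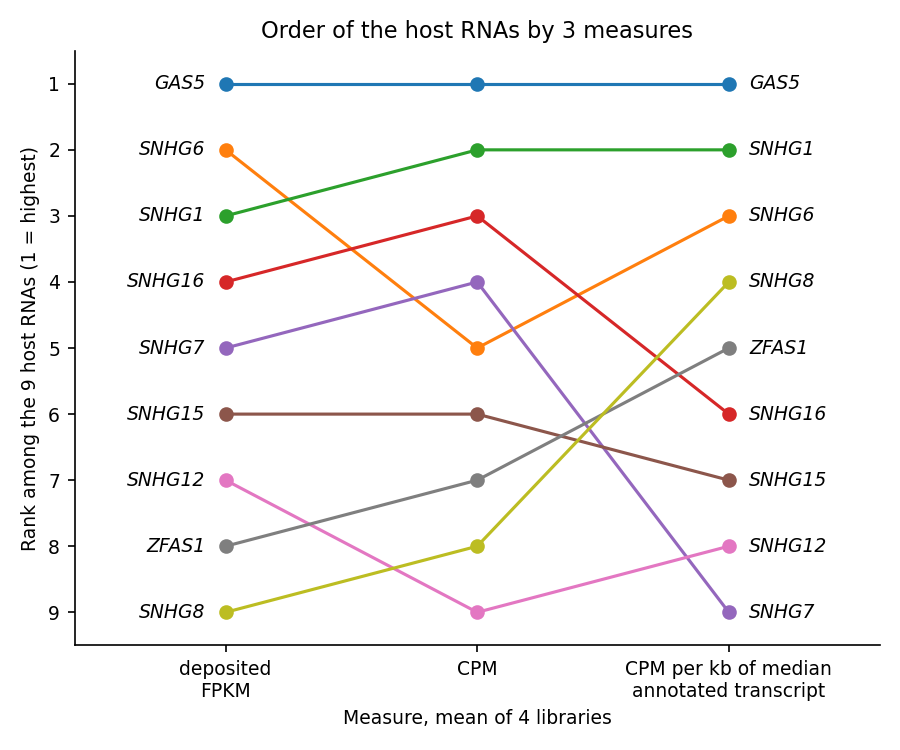
Rank of the 9 host RNAs (1 is the highest) by the mean over 4 libraries of the deposited FPKM, of CPM and of CPM per kilobase of the median annotated transcript, with 1 line per gene. GAS5 is first by all 3, and SNHG8 and ZFAS1 rank higher per kilobase of annotated transcript than by FPKM.

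The 9 host RNAs together took 18659, 18012, 27054 and 26990 counts, in the order of libraries given above, which is 0.0564%, 0.0527%, 0.0865% and 0.0742% of a library. GAS5 alone made up 25.8% and 27.1% of these counts in SK-MEL-28, against 35.7% and 39.9% in A375.

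The comparison of siLINC00622 with siNC asks how the transcriptome differed when LINC00622 was lowered. Ratios are log2 ratios of counts scaled within each line by TMM (trimmed mean of M values), with 95% Clopper-Pearson intervals that cover counting error only. Of the 9 host RNAs, 0 passed 1.5-fold in either line. Among all genes that reached 10 counts in a line, 4.56% were past 1.5-fold higher and 6.49% past 1.5-fold lower for SK-MEL-28, against 4.52% and 4.34% for A375. Genes with at least as many counts as the least counted host RNA (a mean of 930 over 4 libraries) passed it less often. In either direction these were 5.17% of 6989 for SK-MEL-28 and 2.58% of 6981 for A375. At 1.2-fold, SNHG12 was past it higher and SNHG16 lower in SK-MEL-28, where 17.1% of all genes were past it higher and 19.8% lower. SNHG1, SNHG7 and SNHG12 were past it lower in A375, against 17% of all genes, with 17.3% past it higher. In A375 all 9 host RNAs lay below 0, with a median log2 ratio of -0.25, where 49.3% of all 16021 genes lay below 0 with a median of 0.004. In SK-MEL-28, 7 of 9 lay below 0, with a median of -0.02 against -0.004 over 15442 genes, of which 50.5% lay below 0. For the summed counts of the 9 RNAs the log2 ratio of A375 was -0.21 (-0.24 to -0.19) and that of SK-MEL-28 was -0.08 (-0.11 to -0.05).

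SNHG16 was the host RNA furthest below 0 in SK-MEL-28. Its counts there were 3999 with siNC and 3094 with siLINC00622, and those of A375 were 2351 and 2291, the A375 siLINC00622 library being the largest of the 4. The log2 ratio was -0.40 (-0.47 to -0.33) for SK-MEL-28 and -0.25 (-0.33 to -0.16) for A375. SNHG16 was thus lower with siLINC00622 in both lines, by more than counting error.

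SNHG1 was the host RNA furthest below 0 in A375, with 5163 counts with siNC and 4201 with siLINC00622. Its log2 ratio there was -0.51 (-0.57 to -0.45), at the 5.88 percentile of all genes tested. In SK-MEL-28 it had 2527 and 2539 counts and a log2 ratio of -0.02 (-0.10 to 0.06). The 2 log2 ratios of SNHG1 differed by 0.48 (counting interval 0.38 to 0.58). SNHG7 had a like pair of values, with 1601 and 1631 counts and a log2 ratio of -0.00 (-0.10 to 0.10) in SK-MEL-28, and with 2809 and 2614 counts and a log2 ratio of -0.31 (-0.39 to -0.24) in A375.

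SNHG12 stood on opposite sides of 0 in the lines. In SK-MEL-28 it had 467 counts with siNC and 647 with siLINC00622, a log2 ratio of 0.44 (0.27 to 0.61), which was the highest of the 9 RNAs in either line. In A375 it had 1364 and 1242 counts, a log2 ratio of -0.34 (-0.46 to -0.23). The log2 ratio of SK-MEL-28 exceeded that of A375 by 0.78 (counting interval 0.58 to 0.99), and with 1 library per condition this difference between the lines was not tested. ZFAS1 had 1268 and 1376 counts in SK-MEL-28, against 1262 and 1275 in A375. Its log2 ratios were 0.09 (-0.02 to 0.20) and -0.19 (-0.31 to -0.08), so the interval of SK-MEL-28 held 0.

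GAS5, the most abundant of the 9 by count, lay close to 0 in both lines. Its counts were 4818 and 4882 in SK-MEL-28, against 9654 and 10775 in A375. The log2 ratios were -0.01 (-0.07 to 0.05) and -0.05 (-0.09 to -0.01), the narrowest intervals of the 9. SNHG15, with 1674 and 1685 counts in SK-MEL-28, against 1033 and 1005 in A375, was at -0.02 (-0.12 to 0.08) and -0.25 (-0.38 to -0.12). SNHG6, with 1515 and 1433 counts in SK-MEL-28, against 2332 and 2407 in A375, was at -0.11 (-0.22 to -0.01) and -0.16 (-0.25 to -0.08). SNHG8, with 790 and 725 counts in SK-MEL-28, against 1086 and 1180 in A375, was at -0.15 (-0.30 to -0.01) and -0.09 (-0.21 to 0.03). These last 2 RNAs were slightly below 0 in both lines.

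By counting error alone, 3 host RNAs were below 0 and 1 above in SK-MEL-28, and 8 below and 0 above in A375. Counting error does not include the spread between cultures. Of 6989 genes with at least as many counts as the least counted host RNA (a mean of 930 over 4 libraries), 32.3% were apart from 0 and lower and 34.6% higher for SK-MEL-28, and of 6981 such genes 31.2% were lower and 34.9% higher in A375.

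**Figure D3:**
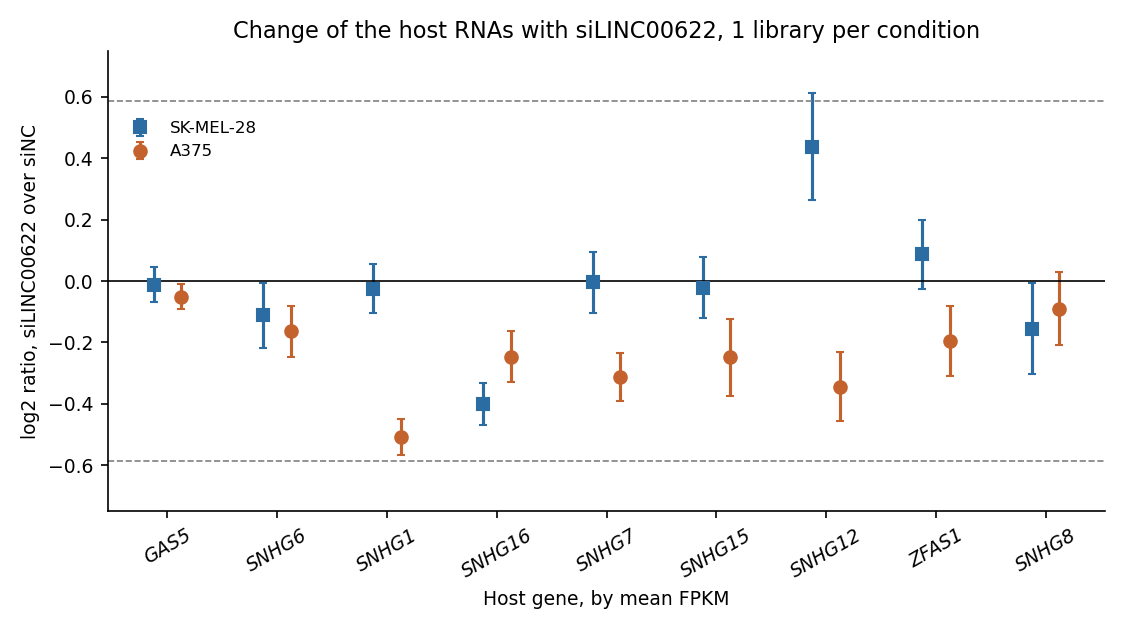
Log2 ratio of siLINC00622 over siNC for the 9 host RNAs in SK-MEL-28 (squares) and A375 (circles), from TMM-scaled counts, with 95% counting intervals as bars and dashed lines at 1.5-fold. All 9 points of A375 lie below 0, SNHG12 lies at 0.44 in SK-MEL-28 and at -0.34 in A375, and no point passes a dashed line.

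The lines are the only replication of the treatment, and edgeR's quasi-likelihood test over all 4 libraries with the line as a block left 1 residual degree of freedom. The test also drew on the spread of all genes, with 5.49 prior degrees of freedom. At an adjusted p (Benjamini-Hochberg) under 0.05 it called 0 of the 9 host RNAs, while 38 of 16310 genes were called (0.233%, with 0.0858% higher and 0.147% lower). At an unadjusted p under 0.05 it named 1 host RNA and 2376 genes, and DESeq2 also called 0 host RNAs. SNHG16 came nearest, with a log2 change of -0.31 (edgeR adjusted p = 0.217). SNHG1 followed with -0.26 (edgeR adjusted p = 0.414). For the other 7 the adjusted p lay between 0.579 and 0.953, the largest being that of SNHG12, whose ratios lie on opposite sides of 0 (log2 change 0.04).

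Between the lines the log2 ratios of the host RNAs ran from -1.06 to 0.90, a wider range than the -0.31 to 0.04 of the treatment in the same fit. In this edgeR fit, 8 of the 9 differed between SK-MEL-28 and A375 at an adjusted p under 0.05, with 6 higher in A375 and 2 higher in SK-MEL-28. That share is to be read against 68.8% of all genes, 34.8% higher in A375 and 34% higher in SK-MEL-28. The labels do not say whether the 2 libraries of a line came from separate cultures beyond their treatment. The p-values therefore rest on the spread between these libraries, taken for the larger part from all genes (5.49 prior degrees of freedom, against 1 residual).

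SNHG12 had the largest difference, 2.09-fold higher in A375 (log2 SK-MEL-28 over A375 -1.06, edgeR adjusted p = 0.00206). Its log2 ratio between the lines was -1.44 in the siNC libraries and -0.68 in the siLINC00622 libraries. GAS5 was 1.86-fold higher in A375 (log2 -0.90, edgeR adjusted p = 9.9e-05), and its ratio was nearly the same in both treatments, -0.90 and -0.89. SNHG1 was 1.63-fold higher in A375 (log2 -0.70, edgeR adjusted p = 0.00243), with -0.93 with siNC and -0.47 with siLINC00622. The narrower gap of SNHG12 and SNHG1 with siLINC00622 is the same difference of ratios as given above for the treatment.

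SNHG7 (log2 -0.57, edgeR adjusted p = 0.00315), SNHG6 (-0.51, adjusted p = 0.00272) and SNHG8 (-0.40, adjusted p = 0.0116) were also higher in A375. The call of SNHG8 was lost with DESeq2, whose adjusted p was 0.087. SNHG15 and SNHG16 went the other way, 1.86-fold (log2 0.90, edgeR adjusted p = 3.28e-04) and 1.71-fold (log2 0.78, adjusted p = 3.95e-04) higher in SK-MEL-28. ZFAS1 was not called, with a log2 ratio of 0.24 (edgeR adjusted p = 0.0962), which was 0.11 with siNC and 0.36 with siLINC00622. Scaling by library totals instead of TMM lowered all of these log2 ratios alike, for instance that of GAS5 to -1.07 and that of ZFAS1 to 0.06, and turned none.

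**Figure D4:**
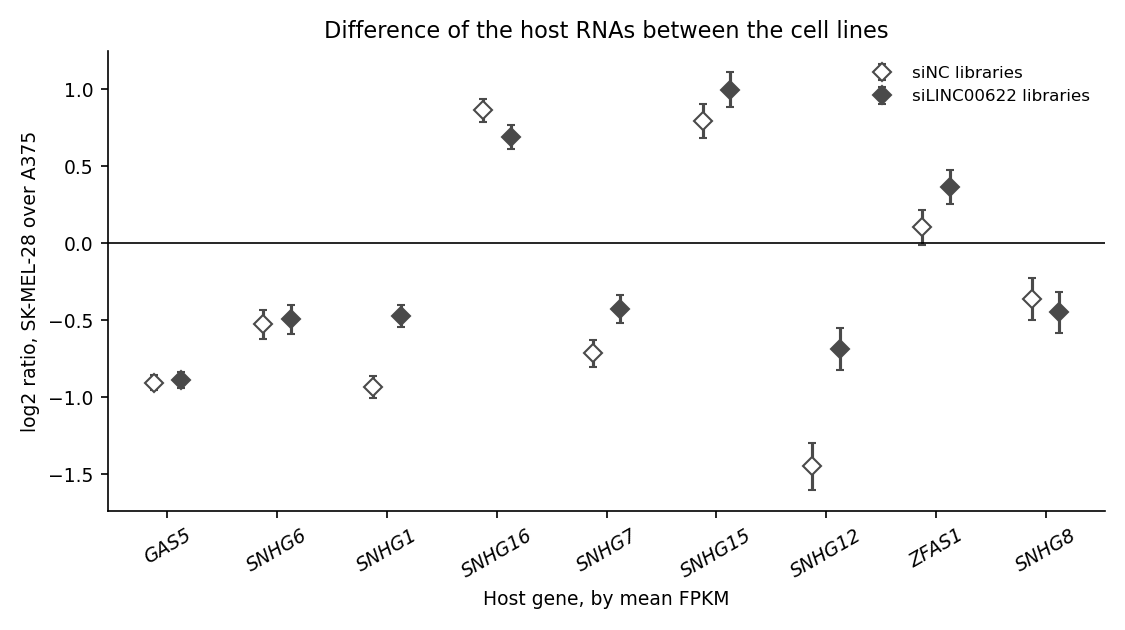
Log2 ratio of SK-MEL-28 over A375 for the 9 host RNAs in the siNC libraries (open) and the siLINC00622 libraries (filled), scaled by TMM over 4 libraries, with 95% counting intervals as bars. SNHG15 and SNHG16 lie above 0 in both treatments, SNHG12 lies at -1.44 with siNC and -0.68 with siLINC00622, and GAS5 at -0.90 and -0.89.

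Genes beside the host genes were compared because the library kit does not mark strand, so that reads from a host RNA and from a gene on the opposite strand at the same place cannot be told apart. Positions are those of GENCODE 29 (GRCh38), matched by gene identifier, since the table gives no coordinates and the submitters' processing notes name hg19. SLC3A2, which encodes the heavy chain of the CD98 amino acid transporter, starts 188 bases from SNHG1 (chr11:62851988-62855914, minus strand) on the opposite strand and does not overlap it. SLC3A2 had 12589 counts with siNC against 18603 with siLINC00622 in SK-MEL-28, and for A375 16957 and 20818. Its log2 ratio was 0.53 (0.50 to 0.56) for SK-MEL-28 and 0.09 (0.06 to 0.12) for A375, so that SLC3A2 and SNHG1 both had the higher log2 ratio in SK-MEL-28. The log2 ratio of SNHG1 minus that of SLC3A2, which does not depend on scaling, was -0.56 (-0.64 to -0.47) for SK-MEL-28 and -0.59 (-0.66 to -0.53) for A375.

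ZNFX1 overlaps ZFAS1 (chr20:49278178-49295738, plus strand) by 249 bases at its start. ZNFX1, with 4967 and 5925 counts in SK-MEL-28, against 3949 and 4892 in A375, had log2 ratios of 0.22 and 0.10, and ZFAS1 lay below it in both lines, by -0.14 (-0.26 to -0.01) and -0.29 (-0.42 to -0.17) on the log2 scale. ZBTB37, which encodes a zinc finger protein, overlaps GAS5 (chr1:173863900-173868882, minus strand) by 801 bases at its start. Its log2 ratios were -0.19 (-0.33 to -0.05) and -0.37 (-0.49 to -0.25), lower than those of GAS5 in both lines. The longest overlap was 2685 bases, between SNHG7 (chr9:136721366-136728184, minus strand) and FAM69B on the opposite strand, which the table lists as DIPK1B. It had 711 and 952 counts in SK-MEL-28, against 205 and 236 in A375, fewer than SNHG7 in every library. SNHG12 (chr1:28578538-28583132, minus strand) overlaps TRNAU1AP by 8 bases, and GAS5-AS1 overlaps GAS5 by 42 bases with at most 60 counts in a library. PRSS12 lies within 1000 bases of SNHG8 on the opposite strand without overlapping it. It had 33 and 67 counts in SK-MEL-28, against 413 and 530 in A375, fewer than SNHG8 in every library. Whether reads from PRSS12 add to the counts of SNHG8 was not tested.

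Few of the embedded snoRNAs could be followed. Of 26 snoRNA records inside the host genes in the annotation, some of them duplicate entries and none of them in GAS5, 3 are listed in the table. SNORD99, inside SNHG12, had 11 and 14 counts in SK-MEL-28, against 78 and 46 in A375. Its log2 ratio was 0.27 (-0.93 to 1.60) for SK-MEL-28 and -0.94 (-1.53 to -0.43) for A375. SNORD99 and SNHG12 were both higher in both A375 libraries. SNORD12C, inside ZFAS1, had between 14 and 24 counts and SNORD1B, inside SNHG16, between 2 and 18, too few for a change to be detectable here. All 107 snoRNA and scaRNA genes listed took between 0.00286% and 0.0058% of a library. Reads from a snoRNA and from the intron of its host cannot be told apart here. The libraries were also selected for poly(A), so these counts are not read as levels of the snoRNAs.

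The other genes around these RNAs were taken from lists written from general knowledge, some of which share genes. Their counts past 1.5-fold are to be read against the shares of all genes, 4.56% higher and 6.49% lower for SK-MEL-28 and 4.52% higher and 4.34% lower for A375. Other snoRNA hosts, most of them noncoding, came closest to the 9 RNAs by kind. Of these, 18 are listed, and 17 reached 10 counts in SK-MEL-28 and 17 in A375, 16 of them in both. The median log2 ratio was 0.04 (SK-MEL-28) and -0.30 (A375). In A375, 14 of its 17 lay below 0, 4 of them past 1.5-fold lower, and in SK-MEL-28 8 of its 17 lay below 0, 1 of them past 1.5-fold lower. The 4 in A375 were SNHG21, SNHG25 (20 and 10 counts), SNHG9 (143 and 103) and SNHG19 (544 and 414). All had fewer counts than the mean of 930 of the least counted host RNA, and genes above that mean passed the fold less often. SNHG21 was the only one past 1.5-fold lower in both lines, with 53 and 30 counts in SK-MEL-28, against 107 and 79 in A375 (log2 ratios -0.81 and -0.63). SNHG19 was at -0.16 and -0.60, SNHG3 at -0.03 and -0.35, and TAF1D, which also encodes a subunit of the RNA polymerase I factor SL1, at 0.05 and -0.10. Between the lines, 11 of the 18 were higher in A375 and 2 higher in SK-MEL-28 at an adjusted p (edgeR) under 0.05, against 34.8% and 34% of all genes.

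Genes that encode proteins and share the TOP sequence or the intronic snoRNAs with the host RNAs had medians within 0.1 of 0 in both lines. For 26 protein-coding snoRNA hosts, the medians were -0.08 (SK-MEL-28) and -0.07 (A375), with 1 gene past 1.5-fold lower in SK-MEL-28 and none in A375. These hosts were not alike in A375, where 15 lay below 0 and 11 above. There NOP56, NOP58 and NCL, which encode no ribosomal protein, were at -0.34, -0.32 and -0.28, and RPL3 and RPL13A at 0.12 and 0.15. The split was not by kind of protein, since RPL23A was at -0.30 in A375. TPT1 and CCAR1, which encode no ribosomal protein, were at 0.11 and 0.04 there. HSPA8, a heat shock protein, was at 0.26 and -0.15, RPS12 at -0.03 and -0.06, and EEF2, the translation elongation factor, at -0.03 and 0.11. For 79 ribosomal protein genes, 9 of which are also among the 26 hosts, the medians were -0.06 and 0.02, none passed 1.5-fold in either line, and RPL8 was at -0.05 and -0.02 and RPS2 at -0.10 and -0.01. For 15 TOP mRNAs of translation factors and a few other proteins, 4 of which (EEF1B2, EEF2, RACK1 and TPT1) are also among the 26 hosts, the medians were -0.03 and 0.02. EEF1A1 was at -0.10 and 0.15 and RACK1 at -0.12 and 0.02. For 12 regulators of TOP mRNA translation the medians were -0.02 and -0.01. Among them EIF4EBP1, an mTOR target, was at -0.00 and 0.10, EIF4G1 at 0.03 and -0.01 and CNBP at -0.15 and -0.20. Differences between these medians and that of the host RNAs were not tested. Between the lines, 55 of the 79 ribosomal protein genes were higher in A375 and 3 higher in SK-MEL-28, at an adjusted p (edgeR) under 0.05, against 34.8% and 34% of all genes.

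Among 18 listed proteins that bind or assemble snoRNAs, 3 of them also among the 26 hosts, 16 lay below 0 in each line and the median log2 ratio was -0.14 in both. FBL (fibrillarin), the methyltransferase of the C/D particles, had 5738 and 4350 counts in SK-MEL-28, against 9068 and 7756 in A375, a log2 ratio of -0.43 in each line. NOP10, of the H/ACA particles, was at -0.06 and -0.07. NOLC1, a nucleolar chaperone of snoRNA particles, went the other way, with 6005 and 10845 counts in SK-MEL-28, against 9069 and 14890 in A375, log2 ratios of 0.82 and 0.51. In SK-MEL-28 it was past 1.5-fold higher, and it was the only gene of the list past that fold. None of the 18 was called over both lines, the adjusted p (edgeR) being 0.110 for FBL and 0.0628 for NOLC1.

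Among 19 factors of the NMD pathway the medians were 0.03 and -0.07, and none passed 1.5-fold. SMG5, which is itself also a known NMD target, was at 0.17 and -0.03, MAGOH of the exon junction complex at -0.09 and -0.44, and PNRC2, which couples NMD to decapping, at 0.42 and 0.22. For 9 mRNAs known as NMD targets, 3 of which encode factors of the list before, the median was 0.17 in SK-MEL-28, where all 9 lay above 0, and -0.10 in A375, where 7 of 9 lay below 0. ATF4, a transcription factor of the stress response, was at 0.27 and -0.17, and GADD45A at 0.06 and -0.11. In SK-MEL-28, 2 of the 9 were past 1.5-fold higher, ATF3 (116 and 189 counts, log2 ratio 0.66) and GADD45B (194 and 440, 1.14). In A375 1 was past 1.5-fold lower, and it was GADD45B too (456 and 317 counts, log2 ratio -0.73).

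Of 11 listed decay enzymes none passed 1.5-fold, with medians of -0.00 and -0.07, and XRN2 was at -0.06 and -0.07, EXOSC4 at 0.15 and 0.05 and CNOT1 at 0.06 and -0.11. Of 12 other long noncoding RNAs, 1 was past 1.5-fold higher in SK-MEL-28 and 2 lower, and none was past it in A375, with medians of -0.05 and -0.16. NORAD, the RNA that binds Pumilio proteins, was at -0.85 and -0.41, MALAT1 at -0.05 and 0.23 and NEAT1, the scaffold of paraspeckles, at 0.25 and -0.20. In the test over both lines no gene of any of these lists was called at an adjusted p (edgeR) under 0.05.

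**Figure D5:**
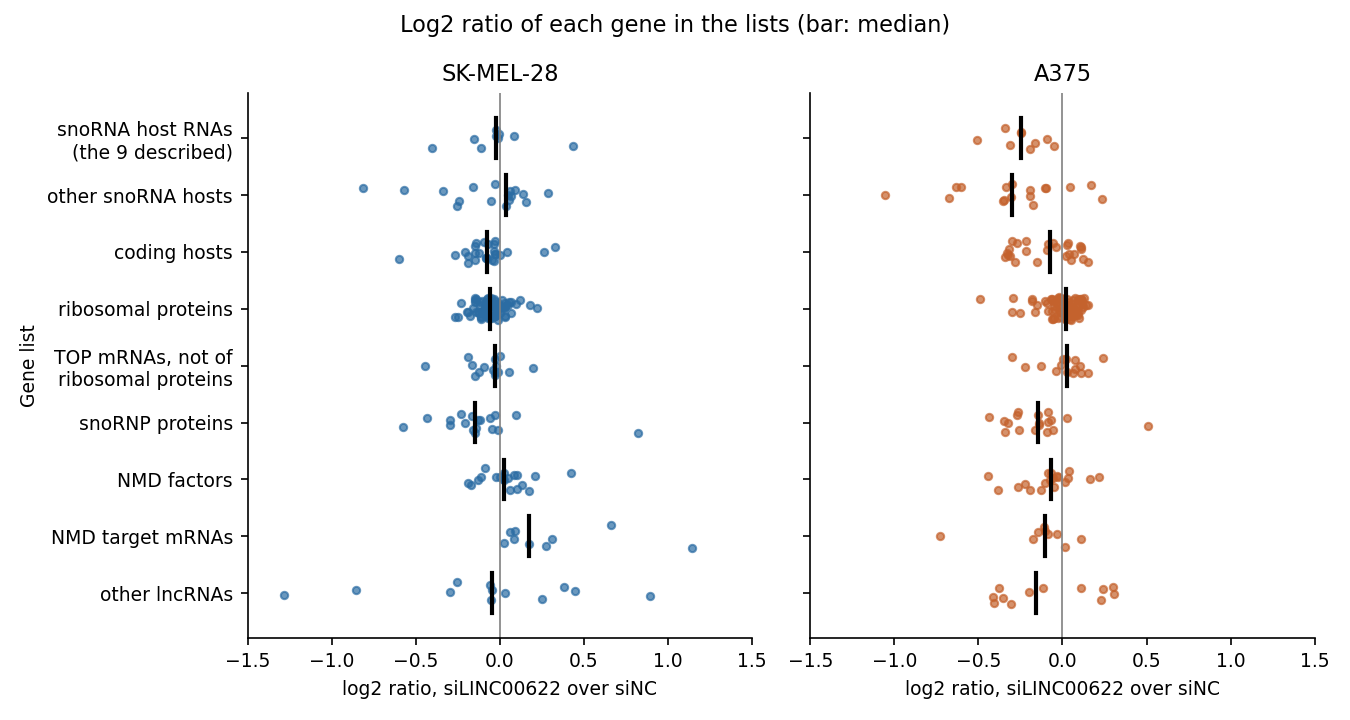
Log2 ratio of siLINC00622 over siNC for each gene of 9 lists with at least 10 counts in the line (points, with random vertical offsets) and the median of each list (bar), with 1 panel per line. The medians of the host RNAs and of the other snoRNA hosts lie at -0.25 and -0.30 in A375 and at -0.02 and 0.04 in SK-MEL-28, and those of the ribosomal proteins lie between -0.06 and 0.02.

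The 9 RNAs did not share 1 profile over the 4 libraries. The mean of their centred log2 levels was highest in A375 siNC (0.23) and lower in A375 siLINC00622 (0.01), SK-MEL-28 siNC (-0.11) and SK-MEL-28 siLINC00622 (-0.14). Single members lay at a Euclidean distance of between 0.21 (SNHG8) and 1.14 (SNHG15) from it. Of 4590 other genes with a mean FPKM of at least 10, those nearest to this mean were SRSF7 (0.02), EIF1AD (0.03), HNRNPA2B1 (0.03), CEP85 (0.04) and HNRNPH1 (0.04), which were nearer to it than any of the 9 host RNAs. The likeness is over 4 libraries only and is a description.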

How the data were processed

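The 4 RNA libraries (SK-MEL-28 or A375, siNC or siLINC00622) were grouped by the line and treatment in their labels, 1 library per condition. The paper's methods describe poly(A) selection, a kit that does not mark strand and paired-end Illumina sequencing. The submitters' processing notes name hg19, HISAT2, TopHat2, Bowtie2 and HISAT, with no role given. The counter and the annotation are not given in the sources used here.

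All values come from 1 table of the 4 libraries. The authors deposited whole-number counts of reads per gene, not normalized. They are accompanied by CPM values, which the authors deposited as counts scaled to the whole library and which gave the library totals. In the FPKM columns, the authors deposited CPM divided by 1 length per gene. The authors deposited TPM values too, which served as an alternative. The number of columns tied to no sample was 0. The table holds 220 genes with an MSTRG identifier.

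Within a line, log2 ratios used TMM factors of edgeR 4.0.16 (R 4.3.3) on library totals, a prior count of 2 and 95% Clopper-Pearson intervals. Reads carry no molecular identifiers, so intervals cover counting error only. At this depth the widest interval among the 9 host RNAs, that of SNHG12 in SK-MEL-28, ran from 0.27 to 0.61. Over both lines, edgeR's quasi-likelihood test used genes with at least 10 counts in at least 2 libraries, the line as a block, and Benjamini-Hochberg adjustment over 16310 genes. The same fit gave the difference between lines. On simulated counts of 16310 genes for the test over both lines, with a dispersion of 0.02, 31 of 50 genes with a log2 change of -1 and 34 of 50 with 1 were called, and 8 of 16110 unchanged genes. All 50 genes at a log2 change of 2 and 44 of 50 at -2 were called. The common dispersion fitted to the data was 0.009, lower than the simulated one. Changes smaller in size than 1, or unlike between the lines, were not simulated. The simulation thus does not tell how often changes of the sizes seen for the host RNAs would be called. Alternatives covered scaling, unit, prior count, filter, fold, block and tool (DESeq2 1.42.0).

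Named were the host genes, LINC00622, the 3 genes of highest mean FPKM in each list, every list gene past 1.5-fold the same way in both lines, genes starting within 1000 bases on the opposite strand, and the 5 genes of nearest profile. Genes overlapping a host gene, PRSS12, MITF, NOP56, NOP58, NCL, RPL3, RPL13A and listed embedded snoRNAs were named after their values were seen. The same holds for RPL23A, TPT1, CCAR1, SNHG9, SNHG25, ATF3 and GADD45B. The host genes and the lists were chosen with earlier results of these data known. Figures used matplotlib 3.10.9 in Python 3.11.15.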

Additional observations from a re-analysis of the deposited data

Results flagged for a closer look

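SNHG12 stood on opposite sides of 0 in the lines, with log2 ratios of siLINC00622 over siNC of 0.44 (SK-MEL-28) and -0.34 (A375), a difference of 0.78 (counting interval 0.58 to 0.99). ZFAS1 did so by less, with 0.09 and -0.19, a difference of 0.28 (0.12 to 0.44), and the interval of its ratio in SK-MEL-28 held 0. With 1 library per condition, neither difference was tested.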

How the results depend on the processing

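For the single host RNAs, 213 of 216 values under the alternatives kept their direction and their side of the threshold. SNHG8 between the lines lost its call (DESeq2 adjusted p 0.087). SNHG12 over both lines, called in neither fit, turned from 0.04 to -0.076 without the block. SNHG7 in SK-MEL-28 turned from -0.00 to 0.01 with DESeq2 size factors, within its counting interval. At a fold of 1.2 in place of 1.5, 2 host RNAs passed in SK-MEL-28 (SNHG12 higher, SNHG16 lower, against 17.1% and 19.8% of all genes) and 3 in A375 (SNHG1, SNHG7 and SNHG12 lower, against 17%). With a filter of at least 100 counts, fewer genes were tested. Past 1.5-fold were then 793 genes in SK-MEL-28 (1706 with at least 10) and 545 in A375 (1420 with at least 10). The number of genes called over both lines was 38, and it was 1 with library totals, 121 with no filter, 1 with at least 100 counts, 303 with DESeq2 (with the block) and 0 with edgeR without the block for the line (27 at an unadjusted p under 0.05). The cause was not tested, and 0 host RNAs were called in each case. The mean log2 ratio of the host RNAs, -0.12 over both lines, lay between -0.24 (without SK-MEL-28) and -0.02 (without A375). Of 9 ranks by FPKM, 2 were kept by CPM and 1 per kilobase of annotated transcript, the latter chosen after seeing the data. The labels carry no replicate numbers, and the cell line served as the block. Leaving out a replicate within a line was not possible with 1 library per condition.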
